A study of Rattus norvegicus with 24 samples.

Results

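The 7 genes Pck1, G6pc1 (G6pc in older annotation), Sds, Tat, Got1, Hal and Igfbp1 were followed in rat liver across 6 compounds. They were chosen by name, with earlier results of these data known, and they are 7 of the 11505 genes that could be tested. Counts of changed members beside shares of all genes are therefore a description. Of the 11505 genes, 4765 had a symbol, and the rest were unnamed records or probes. The 7 are known from hepatocytes near the portal vein, and all but Igfbp1 act in glucose formation or amino acid breakdown. All 7 passed the filter on dim signals. They were measured by 20 probe IDs, all kept, among the 21900 on the arrays. The zone of the liver lobule in which they were expressed was not measured, because RNA came from liver as a whole. In such bulk samples, fewer cells of a type and less RNA per cell cannot be told apart.

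Male F344 rats, an inbred strain, 5 weeks old per the labels, were gavaged daily for 28 days at 5 ml/kg. The carcinogens of the design were 4, with daily doses of 500 mg/kg for hexachloroethane, 50 mg/kg for 1,2,3-trichloropropane, 250 mg/kg for 3-(4-Chlorophenyl)-1,1-dimethylurea (the herbicide monuron) and 150 mg/kg for 1-amino-2-methylanthraquinone. Its non-carcinogens were 2, with 300 mg/kg a day for 1,2-dichlorobenzene and 1000 mg/kg a day for the antibiotic tetracycline hydrochloride. The vehicle was water for tetracycline hydrochloride and corn oil for the rest. Each compound had 4 rats, and each array held the Cy3-labelled liver RNA of 1 treated rat beside a Cy5-labelled pool made from 4 vehicle rats, so a value is the log2 ratio of treated over vehicle in 1 rat, and an error is the SD over 4 rats unless stated. No array had the dyes swapped, and the 4 arrays of a compound lay on 1 slide. The pool is 1 control sample whose own spread is left out of the tests.

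Pck1 encodes phosphoenolpyruvate carboxykinase, which turns oxaloacetate into phosphoenolpyruvate, and G6pc1 the catalytic subunit of glucose-6-phosphatase, which releases free glucose. Sds (serine dehydratase), Tat (tyrosine aminotransferase), Got1 (the cytosolic aspartate aminotransferase) and Hal (histidine ammonia-lyase) break down or transaminate amino acids whose carbon can enter glucose formation. Igfbp1 is a secreted protein that binds insulin-like growth factors. In liver, fasting, glucagon and glucocorticoids are known to raise several of these transcripts, and insulin and feeding to lower them, so their levels can vary within a day.

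The 250 bases before the start of 3 of the genes are shown because these are textbook hormone-regulated promoters and 2 of them held the same short motif. They come from the RefSeq promoter table of the assembly GRCr8, which matched 5 members (Pck1, G6pc1, Tat, Got1 and Igfbp1). Each is written 5′ to 3′ on the gene's strand, with motif matches in capitals.
Pck1, chr3:182348322-182348571, plus strand: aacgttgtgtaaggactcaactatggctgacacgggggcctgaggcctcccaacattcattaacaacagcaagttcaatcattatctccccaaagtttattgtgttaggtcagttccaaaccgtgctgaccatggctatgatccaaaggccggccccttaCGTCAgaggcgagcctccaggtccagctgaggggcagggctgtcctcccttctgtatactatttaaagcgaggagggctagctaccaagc
G6pc1, chr10:86807409-86807658, plus strand: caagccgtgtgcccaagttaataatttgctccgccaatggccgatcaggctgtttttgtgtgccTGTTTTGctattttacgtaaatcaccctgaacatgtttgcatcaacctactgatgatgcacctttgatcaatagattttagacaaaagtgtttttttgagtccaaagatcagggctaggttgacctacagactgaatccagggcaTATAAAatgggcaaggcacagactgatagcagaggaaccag
Igfbp1, chr14:86261027-86261276, plus strand: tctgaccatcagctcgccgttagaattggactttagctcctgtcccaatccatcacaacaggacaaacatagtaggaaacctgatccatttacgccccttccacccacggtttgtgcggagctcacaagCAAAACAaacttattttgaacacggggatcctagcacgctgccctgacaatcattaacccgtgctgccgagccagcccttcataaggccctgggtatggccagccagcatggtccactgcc
Exact matches were sought on both strands. TGTTTTG, the core of an insulin response element, occurred in G6pc1 (bases -186 to -180 from the start) and, on the opposite strand, in Igfbp1 (-121 to -115), and in 5.46% of all 33469 promoters of this length. TGACG, a shortened cAMP response element, occurred on the opposite strand in Pck1 (-90 to -86) and in 18.2% of all promoters. TATAAA occurred in G6pc1 (-41 to -36) and in 12.9% of all promoters. The full cAMP response element TGACGTCA, which holds TGACG, the shortened glucocorticoid response element TGTTCT and the C/EBP-like TTGCNNAA were in none of the 5 windows and in 1.59%, 17.5% and 9.22% of all promoters. A match describes letters in the window and does not show a bound site.

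Across the 6 compounds, these genes were lower than in vehicle in most rats. Sds and Hal were below 0 in 23 of 24 rats each, and Sds fell under 5 compounds and Hal under 1. A gene is said to have fallen or risen where its limma Benjamini-Hochberg adjusted p over all genes was under 0.05 and the change was at least 2-fold. By that rule 17 of the 42 gene and compound combinations fell and 0 rose, and 39 of the 42 means lay below 0. Under 1,2,3-trichloropropane 6 of the 7 members fell, when 0.617% of all genes did. Monuron lowered 5 (0.661% of all genes), 1-amino-2-methylanthraquinone 3 (0.869%), 1,2-dichlorobenzene 2 (0.808%), hexachloroethane 1 (0.435%) and tetracycline hydrochloride 0 (0.13%). At a limma adjusted p under 0.05 with no limit on the fold, 7 members were lower under 1,2,3-trichloropropane (25% of all genes), 6 under monuron (26.1%), 5 under 1,2-dichlorobenzene (26.6%), 3 under hexachloroethane (24.7%), 3 under 1-amino-2-methylanthraquinone (31.1%) and 1 under tetracycline hydrochloride (21.7%). The median of the 7 means was -1.69 for 1,2,3-trichloropropane, -1.11 for monuron, -0.82 for 1,2-dichlorobenzene, -0.80 for 1-amino-2-methylanthraquinone, -0.58 for hexachloroethane and -0.17 for tetracycline hydrochloride, beside medians of all genes between -0.02 and -0.01.

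**Figure D1:**
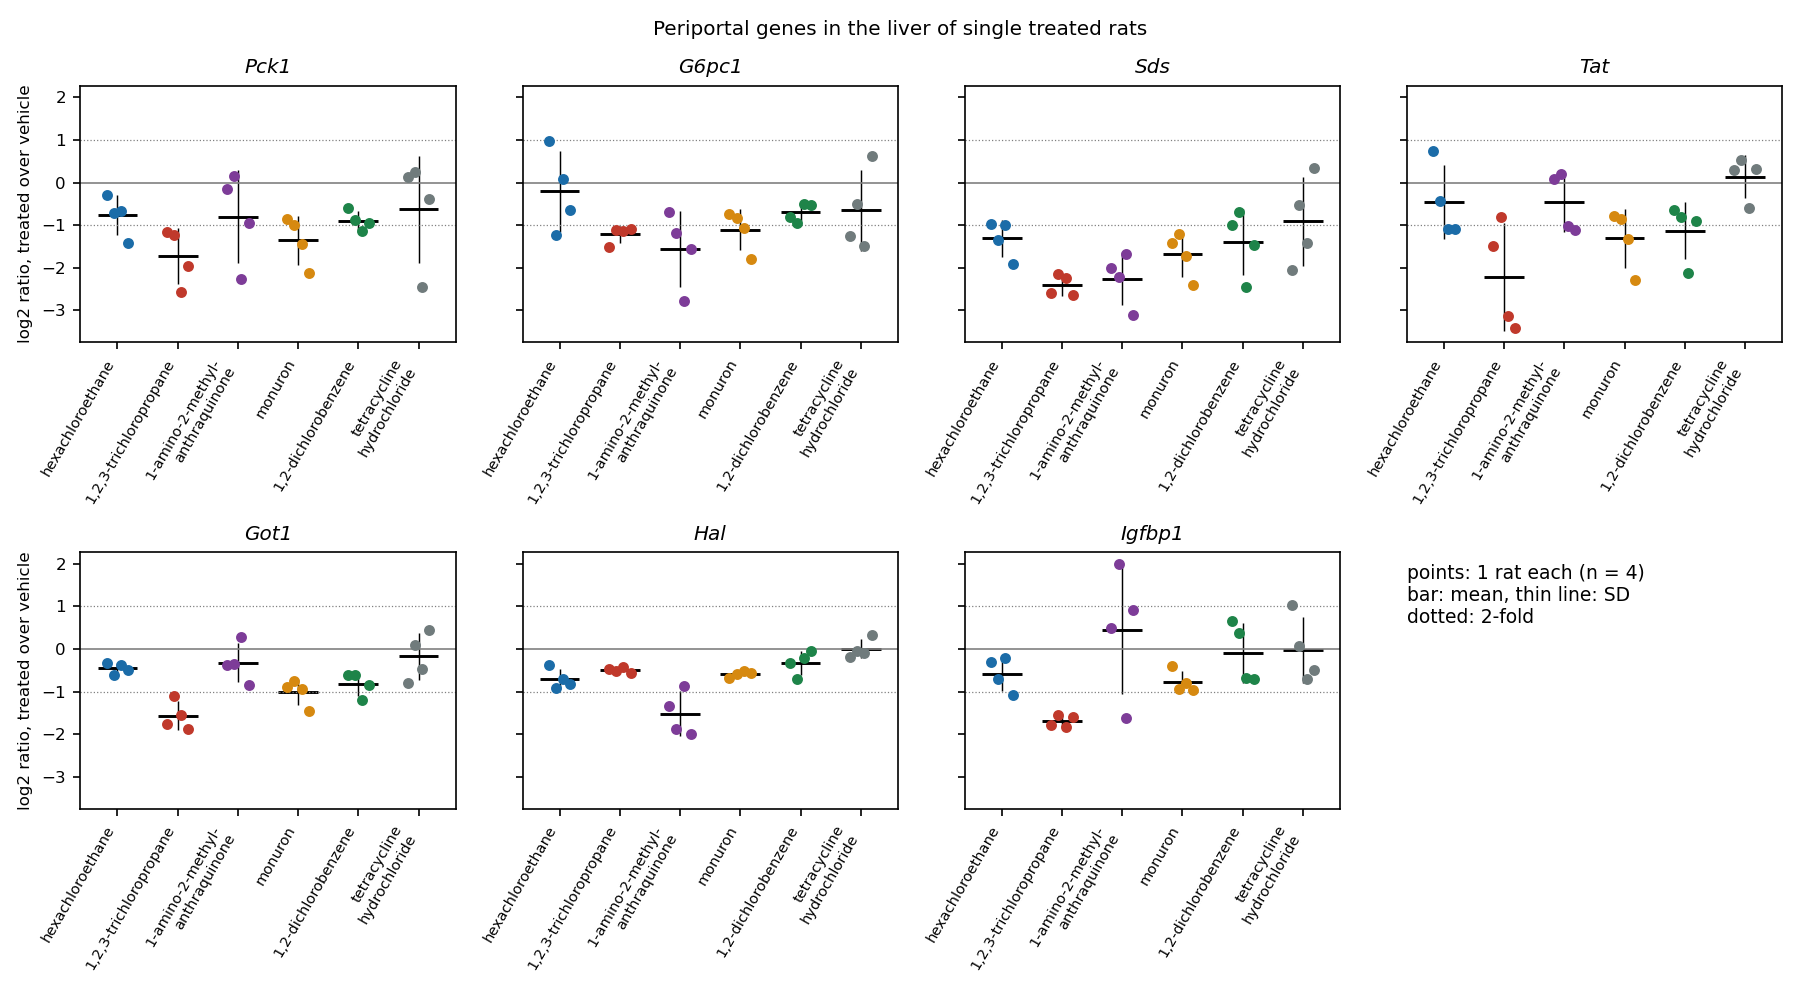
The log2 ratio of treated over vehicle (vertical axis) of the 7 genes in each of 24 rats, by compound (horizontal axis), with the mean as a bar and the SD over 4 rats as a thin line. Sds lay below 0 in 23 of 24 rats, while Igfbp1 ranged from -1.84 to 1.99.

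Among the enzymes of glucose formation, Pck1 fell under 2 compounds and G6pc1 under 3. Pck1 under 1,2,3-trichloropropane read -1.17, -1.24, -2.56 and -1.96 in the 4 rats, a mean of -1.73 ± 0.66 (3.32-fold lower, limma adjusted p = 0.000727). Under monuron it read -0.85, -0.99, -1.45 and -2.13, a mean of -1.36 ± 0.57 (2.56-fold lower, limma adjusted p = 0.00502). All 8 of these rats were below 0, and the 2 groups overlapped. With 1,2-dichlorobenzene the 4 values lay close together, between -1.15 and -0.60, with a mean of -0.89 ± 0.22 (limma adjusted p = 0.0475) that was less than 2-fold. Hexachloroethane gave -0.77 ± 0.47 (limma adjusted p = 0.0978).

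Rats given the other 2 compounds disagreed on Pck1. With 1-amino-2-methylanthraquinone the 4 rats read -0.14, 0.16, -2.26 and -0.95, and with tetracycline hydrochloride 0.12, 0.24, -2.46 and -0.40. In each group 1 rat (replicate 3) stood far below the rest, while at least 1 rat was above 0. The means of -0.80 ± 1.08 and -0.63 ± 1.26 did not pass the test (limma adjusted p = 0.0683 and 0.192).

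The size of the Pck1 change depended on the probe. Its brightest probe, used above, and the probe of a different sequence, present under 2 IDs, begin with the following 30 bases.
Pck1, brightest probe: aaatcttgggcaagtttgtagttataacta
Pck1, other sequence: ttttaatagtcagttgagtagcacagagaa
The probe of the other sequence gave -1.02 ± 0.59 under 1,2,3-trichloropropane and -0.76 ± 0.51 under monuron, of which the first still fell (limma adjusted p = 0.0189) and the second did not pass (limma adjusted p = 0.0720). With 1-amino-2-methylanthraquinone it gave 0.01 ± 0.94. It lay nearer to or above 0 in all 6 compounds, by 0.34 to 0.81. From rat to rat within a compound the 2 sequences nevertheless moved together (Pearson r = 0.997 over 24 arrays after the compound means were removed, a description of 2 readings of the same RNA). Both lay well above background in both channels on all 24 arrays and neither was saturated.

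**Figure D2:**
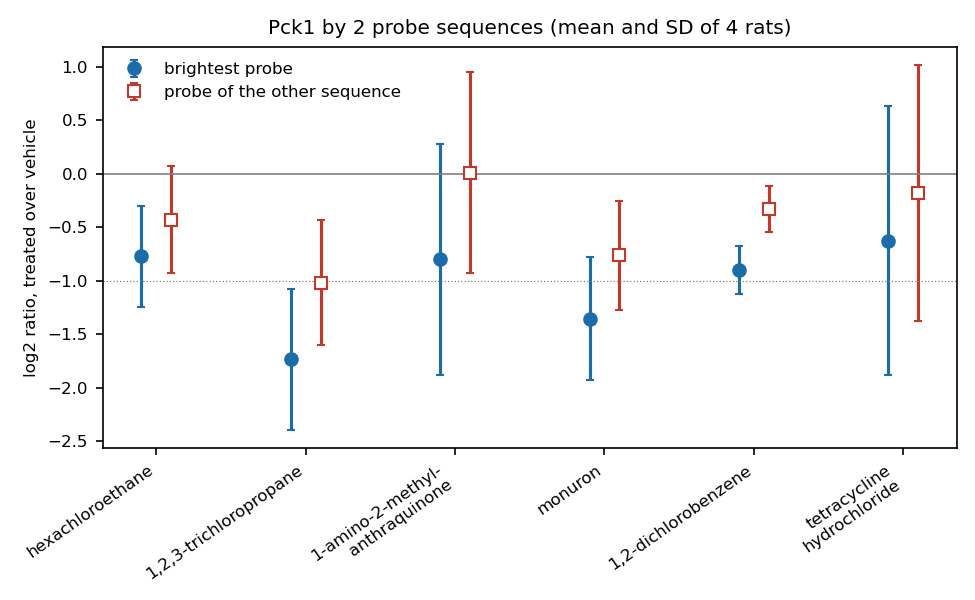
The log2 ratio of treated over vehicle of Pck1 (vertical axis) by 2 probe sequences, by compound (horizontal axis), as mean and SD of 4 rats. The probe of the other sequence lay above the brightest probe in all 6 compounds, with the widest gap (0.81) under 1-amino-2-methylanthraquinone.

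G6pc1 under 1-amino-2-methylanthraquinone read -0.70, -1.19, -2.78 and -1.55 in the 4 rats, a mean of -1.55 ± 0.89 (2.93-fold lower, limma adjusted p = 0.000352). The rats given 1,2,3-trichloropropane agreed closely, with -1.51, -1.12, -1.14 and -1.09 and a mean of -1.21 ± 0.20 (2.32-fold lower, limma adjusted p = 0.00452). Monuron gave -0.74, -0.82, -1.06 and -1.81, a mean of -1.11 ± 0.48 (2.16-fold lower, limma adjusted p = 0.00829). All 12 rats of these compounds were below 0 and the groups overlapped. The 4 rats of 1,2-dichlorobenzene lay between -0.94 and -0.51, with a mean of -0.70 ± 0.21 (limma adjusted p = 0.0777). Hexachloroethane split its rats, with 0.98, -1.23, 0.08 and -0.66 (mean -0.21 ± 0.95), and tetracycline hydrochloride read -1.25, -0.50, -1.502 and 0.63 (mean -0.66 ± 0.95). Neither passed the test (limma adjusted p = 0.641 and 0.12).

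Among the amino acid enzymes, Sds, which deaminates serine to pyruvate, fell under 5 of the 6 compounds. With 1,2,3-trichloropropane the rats read -2.61, -2.14, -2.24 and -2.64, a mean of -2.41 ± 0.25 (5.31-fold lower, limma adjusted p = 2.95e-06). With 1-amino-2-methylanthraquinone they read -2.01, -2.23, -1.67 and -3.11, a mean of -2.25 ± 0.62 (4.77-fold lower, limma adjusted p = 2.44e-06). These 8 rats were all more than 2-fold below vehicle, and the groups overlapped. Monuron gave -1.42, -1.20, -1.73 and -2.41, a mean of -1.69 ± 0.53 (3.23-fold lower, limma adjusted p = 0.000145). With 1,2-dichlorobenzene the values were -1.004, -0.68, -2.45 and -1.46, a mean of -1.40 ± 0.77 (2.64-fold lower, limma adjusted p = 0.000683), and with hexachloroethane -0.98, -1.36, -0.99 and -1.92, a mean of -1.31 ± 0.44 (2.48-fold lower, limma adjusted p = 0.00162). No rat of these 3 compounds was above 0. Tetracycline hydrochloride had the widest spread, from -2.04 to 0.34 with -0.52 and -1.43 between, and a mean of -0.91 ± 1.05 (limma adjusted p = 0.0233) that was less than 2-fold.

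Sds was also read by a dimmer probe of another sequence. The first 30 bases of the 2 probe sequences are shown because they differed in the size of the change.
Sds, brightest probe: cgcctgacagtggcccaccctcctttatcc
Sds, other sequence: tctcatctgggaaggccacacttcccttgt
The other sequence gave smaller decreases in all 6 compounds, by 0.27 to 0.66. It kept the decrease under 1,2,3-trichloropropane (-2.14 ± 0.23), 1-amino-2-methylanthraquinone (-1.75 ± 0.59), monuron (-1.30 ± 0.42) and 1,2-dichlorobenzene (-1.11 ± 0.59), all called in limma. For hexachloroethane it gave -0.66 ± 0.53 and the call was lost (limma adjusted p = 0.0677). For Tat and Hal the next brightest other sequence left each call against vehicle in place and moved no mean by more than 0.24. The calls of G6pc1 and Igfbp1 stayed as well. For these genes, however, the 2 sequences overlap almost fully in their first 30 bases, so this is no separate check.

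Tat, the first and rate-limiting enzyme of tyrosine breakdown, fell under 3 compounds, with rats of 1,2,3-trichloropropane far apart. They read -1.49, -0.81, -3.14 and -3.42, a mean of -2.21 ± 1.26 (4.64-fold lower, limma adjusted p = 8.99e-05). Monuron gave -0.79, -0.85, -1.33 and -2.28, a mean of -1.31 ± 0.69 (2.48-fold lower, limma adjusted p = 0.00778). The rats of 1,2-dichlorobenzene read -0.65, -0.81, -2.13 and -0.91, a mean of -1.13 ± 0.68 (2.19-fold lower, limma adjusted p = 0.0173), and without replicate 3 the mean was -0.79 and the call was lost (limma adjusted p = 0.137). All 12 rats were below 0. With hexachloroethane (-0.47 ± 0.87) and 1-amino-2-methylanthraquinone (-0.46 ± 0.70) rats lay on both sides of 0, and neither mean passed (limma adjusted p = 0.345 and 0.309). Tetracycline hydrochloride gave 0.30, 0.53, -0.60 and 0.32, a mean of 0.14 ± 0.50 (limma adjusted p = 0.807), with 3 of 4 rats above vehicle.

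Got1, an aminotransferase that links aspartate and oxaloacetate, fell under 2 compounds. With 1,2,3-trichloropropane the rats read -1.76, -1.10, -1.56 and -1.87, a mean of -1.57 ± 0.34 (2.97-fold lower, limma adjusted p = 5.23e-07). With monuron they read -0.88, -0.75, -0.94 and -1.47, a mean of -1.01 ± 0.31 that just passed 2-fold (2.01-fold lower, limma adjusted p = 8.17e-05). The 2 groups overlapped by 1 rat each. The means under 1,2-dichlorobenzene (-0.82 ± 0.28, limma adjusted p = 0.000506) and hexachloroethane (-0.45 ± 0.13, limma adjusted p = 0.0412) passed the test below 2-fold, with all 8 rats below 0. Those under 1-amino-2-methylanthraquinone (-0.32 ± 0.46) and tetracycline hydrochloride (-0.17 ± 0.55) did not (limma adjusted p = 0.115 and 0.46).

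For monuron the calls rested partly on replicate 4, the lowest rat in Pck1, G6pc1, Sds, Tat, Got1 and Igfbp1. Without it the members that fell went from 5 to 2, because G6pc1 (-0.88, limma adjusted p = 0.0664), Tat (-0.99, limma adjusted p = 0.0718) and Got1 (-0.86, less than 2-fold) no longer met the rule. Leaving out a rat of 1,2,3-trichloropropane left 6 members called each time. For tetracycline hydrochloride 2 members met the rule without replicate 4, Sds (-1.33, limma adjusted p = 0.00285) and G6pc1 (-1.08, limma adjusted p = 0.0171), and 1 without replicate 2, Sds (-1.04, limma adjusted p = 0.0323). Pck1 under 1-amino-2-methylanthraquinone met it without replicate 2 (-1.12, limma adjusted p = 0.0286).

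Hal, which turns histidine into urocanate, had a pattern of its own in one compound. With 1-amino-2-methylanthraquinone the rats read -1.33, -1.88, -0.87 and -1.99, a mean of -1.52 ± 0.52 (2.86-fold lower, limma adjusted p = 4.81e-09). No other compound lowered it 2-fold, though hexachloroethane (-0.70 ± 0.24), monuron (-0.59 ± 0.07), 1,2,3-trichloropropane (-0.49 ± 0.05) and 1,2-dichlorobenzene (-0.32 ± 0.28) passed the test (limma adjusted p between 0.00019 and 0.0443). Each of these 16 rats was below 0. Tetracycline hydrochloride gave 0.00 ± 0.22 (limma adjusted p = 0.998). A further, dim Hal probe lay well above background on 8 treated and 19 vehicle arrays, and its means were between -0.21 and 0.04.

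Igfbp1 varied more between rats than the other members under 1-amino-2-methylanthraquinone. With that compound the rats read 0.49, 1.99, -1.61 and 0.92, a mean of 0.45 ± 1.51 (limma adjusted p = 0.298). Replicate 3 was the rat that was also lowest in Pck1 and G6pc1 and the highest in Sds, Got1 and Hal. Without replicate 3 the Igfbp1 mean was 1.14 and met the rule for a rise (limma adjusted p = 0.00297). With 1,2,3-trichloropropane the rats agreed, at -1.77, -1.55, -1.84 and -1.59, a mean of -1.69 ± 0.14 (3.22-fold lower, limma adjusted p = 0.000768). The 4 rats of monuron (-0.78 ± 0.27) and the 4 of hexachloroethane (-0.58 ± 0.41) were below 0 as well, but neither passed (limma adjusted p = 0.0841 and 0.211). Rats given 1,2-dichlorobenzene (0.65, 0.39, -0.69 and -0.70) or tetracycline hydrochloride (1.02, 0.07, -0.71 and -0.49) lay on both sides of 0.

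A ratio holds the level of the treated rat and that of the pool on the same array, so both channels were read apart, as log2 signals scaled between arrays. The pool was read 4 times on a slide and repeated closely. Taken over all 6 slides, the SD within a slide was 0.04 to 0.08 for the members in the pool and 0.28 to 0.80 in treated rats. On single slides treated SDs ran from 0.03 (Hal, monuron) to 1.53 (Igfbp1, 1-amino-2-methylanthraquinone). Those of the pool ran from 0.005 (Sds, monuron) to 0.11 (Got1, 1-amino-2-methylanthraquinone). Between slides the vehicle level of the members moved far more. It ranged over 3.44 log2 units for Igfbp1, 2.60 for Sds, 1.79 for Got1, 1.70 for G6pc1, 1.54 for Tat, 1.01 for Pck1 and 0.40 for Hal. The median of all genes was 0.35 and their 90th percentile 0.75, so 6 of the 7 members lay above that percentile. Among the 5 corn oil slides alone Igfbp1 ranged over 1.52, and the range of Sds, Got1, G6pc1 and Tat was the same as over all 6. The labels' protocol gives each compound a control group of its own, and vehicle pool, slide and compound cannot be told apart here.

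**Figure D3:**
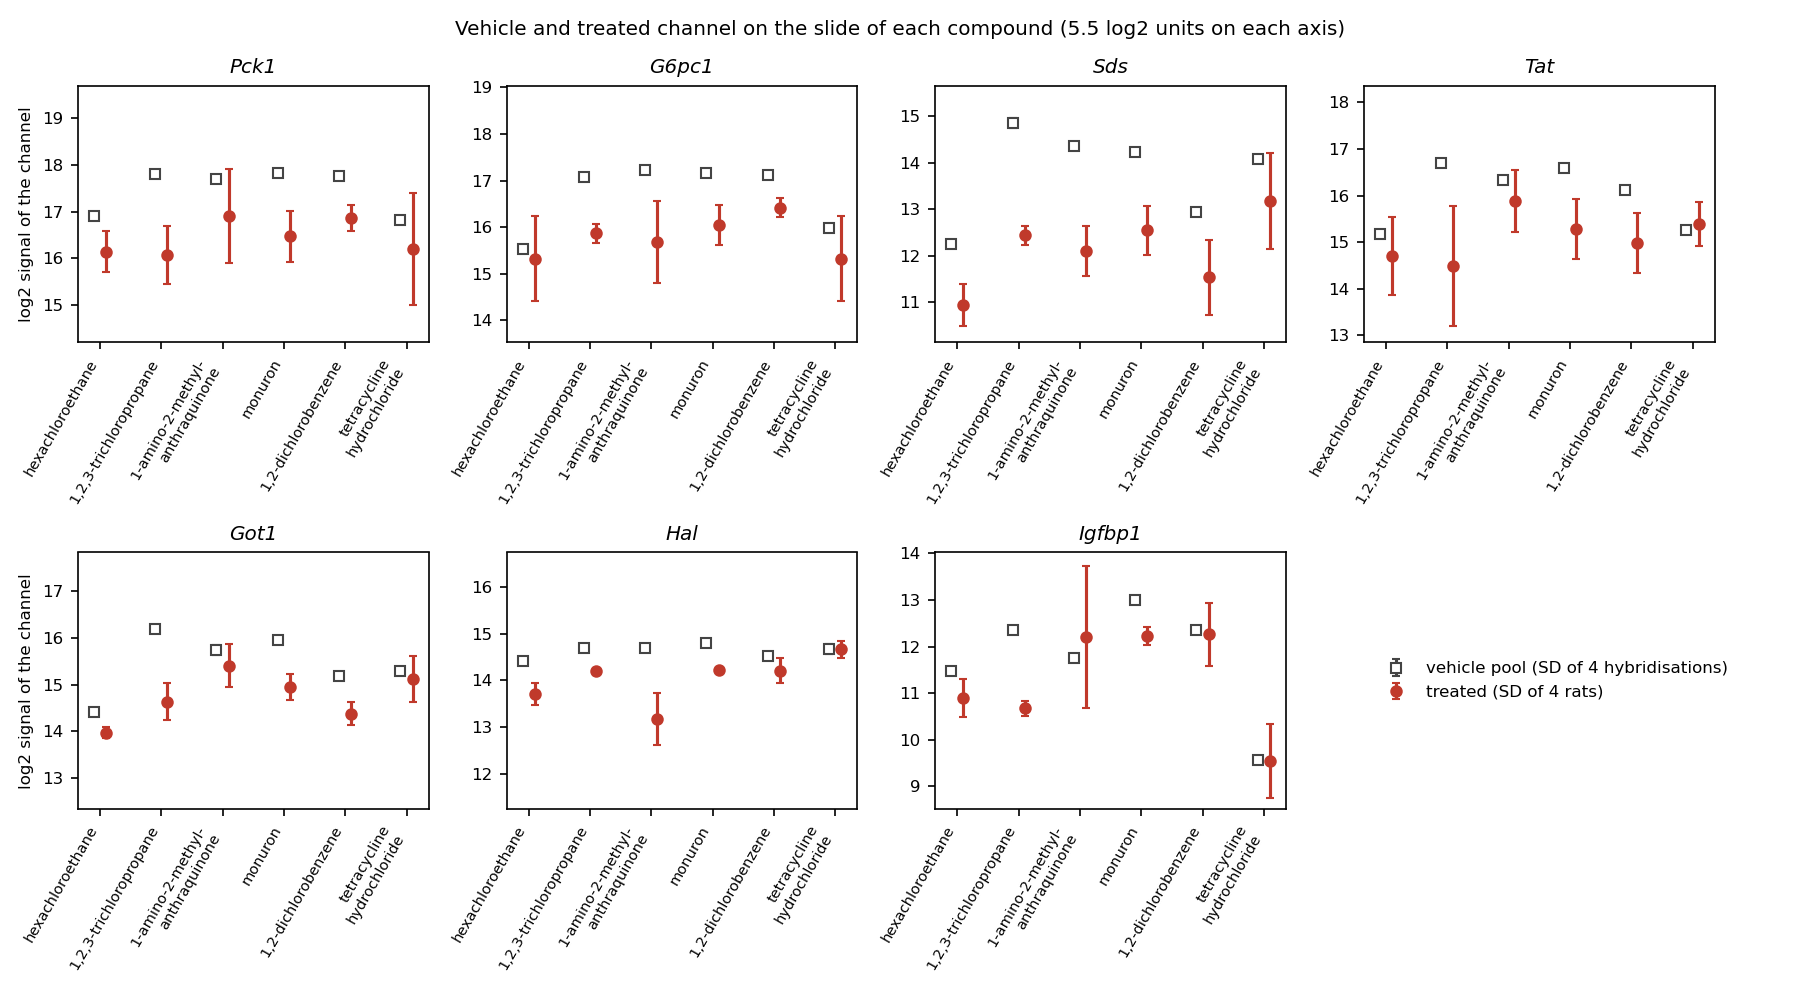
The log2 signal (vertical axis, of equal height in each panel) of the vehicle channel and the treated channel for the 7 genes, on the slide of each compound (horizontal axis), as mean and SD of 4 arrays. The vehicle level of Sds ran from 12.25 on the hexachloroethane slide to 14.85 on the 1,2,3-trichloropropane slide, and vehicle SDs are smaller than the symbols.

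The vehicle levels of Pck1, G6pc1 and Tat were low on 2 of the slides. On the slides of hexachloroethane and tetracycline hydrochloride, both scanned on day 1, the vehicle level of G6pc1 was 15.53 and 15.98, against 17.08 to 17.23 on the other 4 slides. Pck1 (16.91 and 16.82 against 17.70 to 17.82) and Tat (15.17 and 15.25 against 16.12 to 16.71) showed the same 2 low slides. The treated level of G6pc1 was also lowest there, at 15.3 on both, against 15.68 to 16.42. The lowest treated level of Pck1 (16.06) and of Tat (14.49) was on the 1,2,3-trichloropropane slide. On the slides of hexachloroethane and tetracycline hydrochloride treated Pck1 was 16.14 and 16.19 and treated Tat 14.71 and 15.39, the latter second only to 1-amino-2-methylanthraquinone (15.88). On those slides the pool was low for Pck1, G6pc1 and Tat. The vehicle was corn oil for hexachloroethane and water for tetracycline hydrochloride. Its part in their ratios was not tested, and pool, slide, scan day and compound cannot be told apart there.

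For Sds and Got1 the vehicle level was lowest with hexachloroethane (12.25 and 14.41), and the treated level was lowest there too (10.94 and 13.96). Igfbp1 on the tetracycline hydrochloride slide was low in the vehicle channel (9.57, against 11.48 to 13.00 on the others) and equally low in the treated rats (9.54). Each treated rat was also set against the mean vehicle level of the 6 slides, an alternative chosen after the data had been seen. This mean joins corn oil pools with the water pool of tetracycline hydrochloride, so no rat was set against its own vehicle alone. With it 5 members fell under hexachloroethane in place of 1. The counts were 3 under tetracycline hydrochloride in place of 0 and 1 under monuron in place of 5. Igfbp1 then turned to 0.47 under monuron and 0.51 under 1,2-dichlorobenzene, and was -2.21 under tetracycline hydrochloride. Sds stayed below 0 in all 6 compounds under that alternative. The share of all genes called with it was not counted, so its member counts have no background beside them. The part of the pools in each ratio was not tested.

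Each compound was also set against the mean of the other 5, in which a dye effect alike on all arrays cancels. Differences between pools or vehicles do not cancel in it. Under 1,2,3-trichloropropane Tat (-1.57 ± 0.42 SE, limma adjusted p = 0.00714), Got1 (-1.02 ± 0.19 SE, limma adjusted p = 0.000458) and Igfbp1 (-1.48 ± 0.40 SE, limma adjusted p = 0.00738) were lower, 3 of 7 members beside 0.261% of all genes. With 1-amino-2-methylanthraquinone Hal was lower (-1.10 ± 0.14 SE, limma adjusted p = 2.57e-06, 0.374% of all genes lower) and Igfbp1 higher (1.08 ± 0.40 SE, limma adjusted p = 0.0291, 0.921% higher). With tetracycline hydrochloride Tat was higher (1.25 ± 0.42 SE, limma adjusted p = 0.0253, 0.252% higher). Against the mean of the 6 slides, its pool and treated rats lay at -0.78 and 0.27. Under 1,2,3-trichloropropane these were 0.68 and -0.63 for Tat, 0.74 and -0.11 for Got1 and 0.61 and -0.62 for Igfbp1. With 1-amino-2-methylanthraquinone they were 0.06 and -0.85 for Hal and 0.002 and 0.90 for Igfbp1. The part of the pools in these calls was not tested. The lower share for tetracycline hydrochloride was 0.322% and the higher share for 1,2,3-trichloropropane 0.148%, with 0 members. No member met the rule for hexachloroethane (0.296% of all genes lower and 0.339% higher), monuron (0.2 and 0.409%) or 1,2-dichlorobenzene (0.226 and 0.296%). Several of these calls needed particular rats. Tat under 1,2,3-trichloropropane lost its call without replicate 3 (-1.26) or replicate 4 (-1.17), Igfbp1 under 1-amino-2-methylanthraquinone without replicate 1 (1.07), 2 (0.57) or 4 (0.92), and Tat under tetracycline hydrochloride without replicate 1 (1.20), 2 (1.12) or 4 (1.19). Hal under 1-amino-2-methylanthraquinone stayed past the adjusted p but came under 2-fold without replicate 2 (-0.97) or 4 (-0.94). Got1 under 1,2,3-trichloropropane did the same in several such fits, the smallest without its replicate 4 (-0.92).

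The order of the compounds differed between members. From the lowest mean up, Pck1 ran 1,2,3-trichloropropane, monuron, 1,2-dichlorobenzene, 1-amino-2-methylanthraquinone, hexachloroethane and tetracycline hydrochloride, and Tat and Got1 began with the same 3 compounds and ended with tetracycline hydrochloride. For Sds 1,2,3-trichloropropane was followed by 1-amino-2-methylanthraquinone, and for G6pc1 and Hal 1-amino-2-methylanthraquinone was lowest. For Igfbp1 1-amino-2-methylanthraquinone was highest. Of the 35 pairs of neighbours in these orders 1 differed at a limma adjusted p under 0.05, Hal under 1-amino-2-methylanthraquinone and hexachloroethane (0.81 ± 0.18 SE, limma adjusted p = 0.00139). The other 34 did not pass, which does not show them to be alike. Among them, the rats of 1,2,3-trichloropropane and monuron did not overlap in Igfbp1 (difference 0.91, 95% interval -0.15 to 1.97, limma adjusted p = 0.204), and the interval for Got1 between the same compounds was above 0 (0.56, 95% interval 0.05 to 1.07, limma adjusted p = 0.100). For the remaining 32 pairs the rats overlapped and the 95% interval held 0.

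Over all 15 pairs of compounds, 24 of the 105 member tests (22.9%) passed a limma adjusted p of 0.05, and of all genes 12.7 to 45.6% did so per pair (median 33.9%). These shares were not tested against each other. Tetracycline hydrochloride and 1,2,3-trichloropropane differed in 5 members (33.9% of all genes), and the latter and 1-amino-2-methylanthraquinone in 4 (44.3%). In 2 members each, hexachloroethane differed from 1,2,3-trichloropropane (35%) and from 1-amino-2-methylanthraquinone (41.2%), 1,2,3-trichloropropane from 1,2-dichlorobenzene (12.7%), 1-amino-2-methylanthraquinone from monuron (40.9%) and from tetracycline hydrochloride (43.3%), and monuron from tetracycline hydrochloride (24.5%). In 1 member each, 1,2-dichlorobenzene differed from 1-amino-2-methylanthraquinone (45.6%) and from tetracycline hydrochloride (37.4%). No member differed between hexachloroethane and monuron (23.7%) or 1,2-dichlorobenzene (31.6%), or between monuron and 1,2,3-trichloropropane (25.1%). Hal differed in 8 of 15 pairs, Got1 in 7, Tat and Igfbp1 in 3 each, Sds in 2, G6pc1 in 1 and Pck1 in 0. Hal and Got1 were the members with the smallest SD among rats of the same compound, taken over all compounds. It was 0.28 and 0.37, against 0.66 to 0.82 for the other 5 and a median of 0.10 over all genes. The widest gap was in Tat, 1,2,3-trichloropropane against tetracycline hydrochloride (-2.35, 95% interval -3.47 to -1.23, limma adjusted p = 0.0022). No log2 ratio of one group reached the other. Each ratio is to its own pool, of corn oil and of water rats, and these pools read 16.71 and 15.25 in Tat. The treated signals overlapped, from 13.28 to 15.90 and from 14.69 to 15.71. The part of the pools in this gap was not tested.

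For pairs scanned on 1 day, the 7 members gave 1 difference. Hal was lower with hexachloroethane than with tetracycline hydrochloride (-0.70, 95% interval -1.09 to -0.32, limma adjusted p = 0.0116, with 17.5% of all genes past that threshold). The vehicles were corn oil and water, so compound, vehicle and pool cannot be told apart in this pair. Hal read 14.41 and 14.67 in the pools and 13.71 and 14.67 in the treated rats. None of the members differed between monuron and 1,2-dichlorobenzene (23.9% of all genes), where the limma 95% interval for Igfbp1 ran from -1.75 to 0.37 and for Got1 from -0.70 to 0.32.

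Carcinogens as a class were not told from non-carcinogens by these genes. With compound as a random block in limma 0 of 7 members and 0% of all genes passed (adjusted p = 0.9999 for each member), and at an unadjusted p under 0.05 there were 1 member, Hal, and 191 of 11505 genes. Each of the 7 members had a lower mean over the 4 carcinogens than over the 2 non-carcinogens, with differences from -0.76 ± 0.64 SE for Sds to -0.34 ± 0.40 SE for Got1. The share of all genes with a lower mean over the carcinogens was not counted. Of the non-carcinogens, tetracycline hydrochloride alone was given in water. The other, 1,2-dichlorobenzene, had lower means than the carcinogen hexachloroethane in Pck1, G6pc1, Sds, Tat and Got1 and higher ones in Hal and Igfbp1. With 4 compounds against 2 the test has little precision.

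Within a compound, rats differed in a linked way. After the compound means were removed, Sds and Got1 moved together over the 24 rats (Pearson r = 0.90 and Spearman rho = 0.91, each with a permutation p of 1e-05, the smallest that 100000 resamples can give, and an adjusted permutation p of 0.000105 and 0.00021). Pck1 moved with Tat (r = 0.72, adjusted permutation p = 0.000105, rho = 0.81, adjusted permutation p = 0.00021) and with Igfbp1 (r = 0.70, adjusted permutation p = 0.00763, rho = 0.63, adjusted permutation p = 0.0209). Rats were permuted within compounds, two-sided, and p was adjusted over the 21 pairs of members. Without the 2 rats farthest from the median r was 0.85, 0.78 and 0.55. With the other probe sequences r was 0.84, 0.72 and 0.68. Got1 kept its only sequence here, and that of Igfbp1 overlapped its brightest probe almost fully. The Pck1 sequences moved together within compounds (Pearson r = 0.997). Both readings come from the same RNA, so this is no separate check of the links. The other 18 pairs did not pass, and Hal with Igfbp1 was the most negative (r = -0.70, adjusted permutation p = 0.0966).

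**Figure D4:**
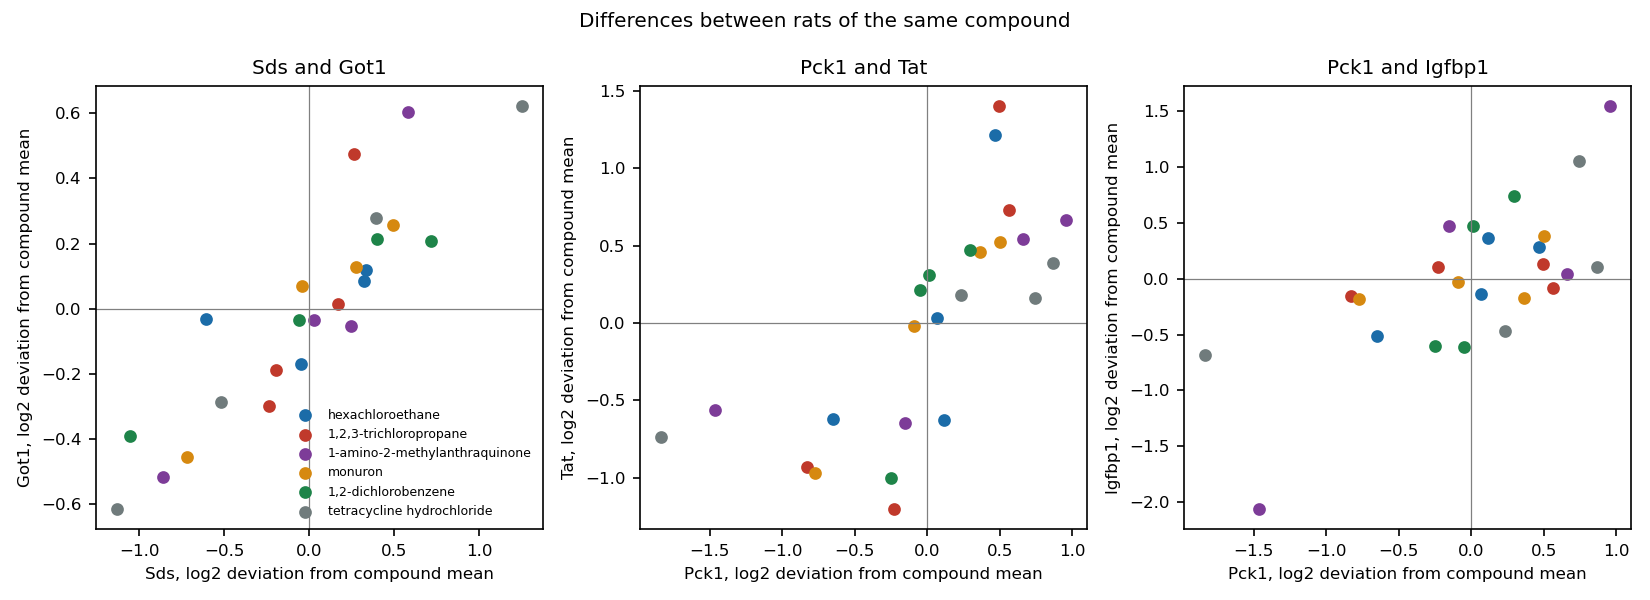
Deviations of single rats from their compound's mean log2 ratio (both axes, log2 units) for Sds and Got1, Pck1 and Tat, and Pck1 and Igfbp1, with 1 point per rat and a colour per compound. Sds and Got1 lie along a line (r = 0.90), and the lowest Pck1 point belongs to tetracycline hydrochloride replicate 3.

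Of the 4749 other genes with a symbol, those whose log2 ratios over the 24 arrays were most like a member's are given with Pearson's r as a description, since arrays of a compound share a slide and a pool. Tat was nearest to Slc25a25 (r = 0.88), a mitochondrial carrier, and to Klf15 (r = 0.87) and Arl4a (r = 0.85), and Pck1 to Klf15 (r = 0.76), Arl4a (r = 0.75) and Agfg2 (r = 0.75). Klf15 is a transcription factor known from amino acid and glucose metabolism. G6pc1 was nearest to the probe named Ghrh (r = 0.93), followed by Arhgef3 (r = 0.84) and the kinase Sik1 (r = 0.79). Sds lay nearest to Srsf10 (r = 0.82), Adipor2 (r = 0.79) and Higd1a (r = 0.76), and Got1 to the amino acid transporter Slc7a2 (r = 0.87), C1d (r = 0.85) and Rab28 (r = 0.83). Hal was nearest to Cdc123 (r = 0.88), Gckr (r = 0.87), the regulator of glucokinase, and Nmnat3 (r = 0.86). Igfbp1 was nearest to Btg2 (r = 0.78), Csnk2a2 (r = 0.76) and Fzd1 (r = 0.75).

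The other genes of glucose formation did not share the size of these changes. For this and the later lists, each read in 6 compounds, the background is as follows. Per compound, 15 to 100 of all 11505 genes fell and 18 to 145 rose. No list was tested as a set. Of 20 measured genes beside the members (28 listed), 1 fell, the carrier Slc25a25 under 1,2,3-trichloropropane (-1.22 ± 0.70, limma adjusted p = 0.000666), and 0 rose in any compound, with medians between -0.17 and 0.10. Among 30 measured genes of amino acid breakdown (48 listed), 7 gene and compound combinations fell and 0 rose, and 5 of these 7 were Oat, ornithine aminotransferase. Oat was -3.72 ± 0.61 under 1,2-dichlorobenzene, -2.60 ± 0.32 under 1,2,3-trichloropropane, -2.21 ± 0.62 under hexachloroethane, -1.26 ± 1.13 under 1-amino-2-methylanthraquinone and -1.14 ± 0.16 under monuron. It is known from perivenous hepatocytes, at the other end of the lobule. The others were Acmsd under 1,2,3-trichloropropane (-1.03 ± 0.30) and Bhmt under monuron (-1.09 ± 0.15).

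No urea cycle gene fell 2-fold (7 measured of 8 listed), and their medians lay between -0.57 and -0.20 in the 6 compounds. Below 2-fold, 4 to 7 of the 7 genes were lower at a limma adjusted p under 0.05, depending on the compound, beside 21.7 to 31.1% of all genes. Under 1-amino-2-methylanthraquinone 2 were higher, Slc25a15 (0.31 ± 0.23, limma adjusted p = 0.0254) and Asl (0.13 ± 0.11, limma adjusted p = 0.0238), beside 3184 of 11505 genes. These 2 were named after their values were seen. Of 12 measured other periportal genes (21 listed), 9 combinations fell and 0 rose, in Apoa4, an apolipoprotein (4 compounds, -1.15 to -3.24, the last ± 0.87 under 1-amino-2-methylanthraquinone), Aldh1b1 (3 compounds, -1.10 to -1.22) and Serpina1 (2 compounds, -1.06 and -1.10). Cps1, Ass1, Arg1, Asl and Fbp1 stand in this list and also in the urea cycle or glucose formation list, so these lists are not separate. Of 14 measured perivenous genes (18 listed), 10 combinations fell and 2 rose, the 2 being Cyp1a2, a xenobiotic-metabolising enzyme, under 1-amino-2-methylanthraquinone (2.46 ± 0.18) and monuron (1.54 ± 0.05). Of the 10 decreases 5 were Oat, and the others were Glul, glutamine synthetase (-1.21 ± 0.21), and Slc1a2 (-1.20 ± 0.19) under hexachloroethane, Slc1a2 (-2.06 ± 0.40) and Cyp1a2 (-1.19 ± 0.59) under 1,2-dichlorobenzene, and Cyp7a1 under 1-amino-2-methylanthraquinone (-1.03 ± 0.85). Medians of the periportal list ran from -0.61 to -0.23 and of the perivenous list from -0.30 to 0.10.

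Regulators were mostly within 2-fold. Of 22 measured (26 listed), 2 combinations fell, Cebpb (-1.01 ± 0.81) and Pde4b (-1.11 ± 0.35) under 1,2,3-trichloropropane, and 2 rose, Foxa2 under that compound (1.15 ± 0.50) and Nr0b2, a nuclear receptor that represses other factors, under hexachloroethane (1.26 ± 1.04). Of 14 measured genes that glucocorticoids are known to induce (17 listed), 13 combinations fell and 3 rose, in medians between -0.53 and -0.01. Dusp1, a phosphatase of MAP kinases, fell under 5 compounds (-1.69 to -1.10) and Sgk1, a kinase, under 4 (-1.51 to -1.19), while Mt1, a metallothionein that metals also induce, rose under 3 (1.01 to 2.11). The other decreases were Tsc22d3 under 1,2,3-trichloropropane (-1.18 ± 0.61) and 1,2-dichlorobenzene (-1.01 ± 0.61), Pim3 under 1,2,3-trichloropropane (-1.26 ± 0.51) and Angptl4 under 1-amino-2-methylanthraquinone (-1.08 ± 0.03). In the insulin-induced list 1 of 14 measured genes fell, Fasn under 1-amino-2-methylanthraquinone (-1.07 ± 0.96), and Me1 rose under hexachloroethane (1.27 ± 0.33) and 1,2-dichlorobenzene (1.47 ± 0.17). Of 9 measured genes of the insulin-like growth factor system, 1 fell, Igfbp3 under 1-amino-2-methylanthraquinone (-1.01 ± 0.22).

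Markers of cell types were read beside these values. All 8 hepatocyte markers were measured, with medians between -0.59 and -0.02, and 2 combinations fell, Serpina1 under 1,2,3-trichloropropane and 1,2-dichlorobenzene. Under 1-amino-2-methylanthraquinone 4 of 5 measured bile duct markers rose (8 listed), with Cldn7 at 3.39 ± 0.76, Epcam at 2.11 ± 0.27, Spp1 at 1.72 ± 0.20 and Krt19 at 1.47 ± 0.35, and their summed treated signal was 4967 to 10097 against 2200 to 4976 in the rats of the other 5 compounds, ranges that touch at the hexachloroethane rats. Under monuron 3 of 3 measured erythroid markers rose (6 listed), with Hbb at 1.64 ± 0.22, Alas2 at 1.13 ± 0.10 and Ahsp at 1.05 ± 0.17, and their summed signal was 35711 to 50791 against 8991 to 23826 in the others. Kupffer cell markers had 1 call, Marco under monuron (1.07 ± 0.45), and Cldn7 rose under 1,2-dichlorobenzene (1.05 ± 0.30). The measured endothelial, stellate, lymphocyte, neutrophil and pancreas acinus markers had no call. The part of these cell types in the changes of Hal, Sds and G6pc1 under 1-amino-2-methylanthraquinone and of 5 members under monuron was not tested.

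Of all probes, 59.7 to 71.7% per array were well above background for treated RNA and 64.2 to 75.9% for the pool. The number of arrays limits the precision, and the lowest correlation between 2 arrays over all genes was 0.04. Scaling by the array median alone, without loess, moved the median of all genes by -0.36 to -0.27 and that of the members by -1.04 to -0.61. With it, between 86.4 and 96.3% of called genes were lower, against 40.8 to 67.6% with loess, and the members that fell numbered 7 each for hexachloroethane, monuron and 1,2,3-trichloropropane, 6 for 1-amino-2-methylanthraquinone, 5 for 1,2-dichlorobenzene and 3 for tetracycline hydrochloride. For hexachloroethane 61.4% of the calls were lower with the scanner's own ratio and 61.8% with the deposited series table, against 47.6% with loess. Igfbp1 under 1-amino-2-methylanthraquinone and Tat and Hal under tetracycline hydrochloride turned below 0 with median scaling (-0.18, -0.49 and -0.57).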

How the data were processed

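Liver RNA of 24 treated rats was hybridised against pooled vehicle RNA on 2-colour Agilent arrays. The deposited spot intensities were read with Agilent Feature Extraction 9.1.3.1, per the file headers and the submitters' processing notes. From the mean spot signal and local background, log2 ratios were computed with limma 3.58.1 (R 4.3.3): normexp with an offset of 50, loess within each array, control and outlier spots left out, and the 2 copies of a probe averaged. Probes not well above background were dropped (16085 of 21900 kept), and the brightest probe stood for a gene, giving 11505 genes. Of the probes, 6176 were named by a current RefSeq symbol, 1918 by an older one, 902 through a record, 621 through an ID and 123 by the design alone, and 12160 had no gene name.

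All 24 arrays entered 1 limma fit (18 residual and 2.92 prior degrees of freedom), with Benjamini-Hochberg adjustment over all genes. The class comparison used compound as a random block (consensus correlation 0.58). Channel levels were scaled between arrays by Aquantile after loess. The labels name separate rats, and p-values measure the spread between these rats only. In data simulated for each of the 6 comparisons with vehicle (11505 genes), 99 to 100% of genes changed by 1.5 on the log2 scale were recovered, 100% of those changed by 2, with 0 or 1 false calls. The changed genes were drawn at random from all genes, whose median spread was 0.10, against 0.28 for Hal to 0.82 for Tat among the members. The noise was independent and normal, without errors of pool or slide. These rates were therefore not shown for the members or for such errors.

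The deposited log10 ratios of the scanner software, Cy5 over Cy3 per the file headers, and the deposited series table, whose values were found to be log2 ratios of treated over vehicle (correlation with the scanner ratio 0.68 to 0.99, column medians -0.01 to 0.08), served as alternatives. The centring and scaling of that table are not given in the sources used here. The other alternatives were median centring, no filter on dim probes, the mean of a gene's probes, an offset of 0, each compound's own 4 arrays, a replicate block and leaving out each rat.

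The members and gene lists were chosen with earlier results of these data known. The genes named are the members, the 3 nearest genes of each, and from each list the called genes, at most 4 per compound and direction, of which some are given only as ranges.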

Additional observations from a re-analysis of the deposited data

Results flagged for a closer look

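G6pc1 under 1,2,3-trichloropropane had 1 rat apart from the rest. Replicate 1 read -1.51 and the other 3 rats lay between -1.14 and -1.09. By Dixon's test at 95%, this was 1 of 42 member and compound groups, and chance marks about 1 group in 20. The call holds without that rat.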

How the results depend on the processing

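Of the settings tried, median centring changed the results most. With it, members called were 7 for hexachloroethane, 6 for 1-amino-2-methylanthraquinone, 5 for 1,2-dichlorobenzene and 3 for tetracycline hydrochloride, and genes called were 656, 444, 1089, 480, 464 and 184 (hexachloroethane first, then 1,2,3-trichloropropane, then 1-amino-2-methylanthraquinone, monuron, 1,2-dichlorobenzene and tetracycline hydrochloride), against 105, 105, 245, 161, 183 and 33. It gave 5 correlated pairs of members in place of 3, and turned Igfbp1 under 1-amino-2-methylanthraquinone (-0.18) and, under tetracycline hydrochloride, Tat (-0.49) and Hal (-0.57). Genes called were 293, 284, 548, 306, 349 and 99 with the scanner ratio and 296, 277, 535, 297, 343 and 111 with the series table, and Hal under tetracycline hydrochloride was -0.021 and -0.032. With the mean of probes, members called were 3 for monuron and, against the other 5 compounds, 1 for 1-amino-2-methylanthraquinone. An offset of 0 gave 51 genes for tetracycline hydrochloride. The cause was not tested.

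Both alternatives that follow were chosen after seeing the data. With the other probe sequence 0 members were called for hexachloroethane, and Pck1 under 1-amino-2-methylanthraquinone was 0.011. With the mean vehicle level of 6 slides members called were 5 for hexachloroethane, 1 for monuron and 3 for tetracycline hydrochloride, and Igfbp1 was 0.47 under monuron and 0.51 under 1,2-dichlorobenzene and Tat -0.64 under tetracycline hydrochloride. That vehicle level mixes corn oil and water pools, and the share of all genes called with it was not counted.

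Leaving out 1 rat, members called ranged over 1 to 1, 6 to 6, 3 to 4, 2 to 5, 1 to 2 and 0 to 2, and genes called over 91 to 121, 90 to 129, 228 to 299, 145 to 175, 165 to 235 and 20 to 56, in the same order. Members called against the other 5 compounds ranged over 0 to 1, 1 to 3, 0 to 2, 0 to 0, 0 to 0 and 0 to 3. Neighbours that differ ranged from 1 to 2, and the class comparison gave 0 members each time. Signs turned for G6pc1 under hexachloroethane (-0.60 to 0.13), for Igfbp1 under 1-amino-2-methylanthraquinone (-0.065 to 1.14), 1,2-dichlorobenzene (-0.33 to 0.11) and tetracycline hydrochloride (-0.38 to 0.20), and under the last for Got1 (-0.38 to 0.030) and Hal (-0.11 to 0.066).

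Replicate numbers did not pair the rats (correlation of deviations with the same number -0.26 to 0.39, median 0.04). The replicate block gave 106 genes for hexachloroethane and changed no call of a member. Dropping the filter or fitting each compound on its own 4 arrays changed no call of a member either.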
